A study of Mus musculus with 8 samples.

Results

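The axon guidance ligands and receptors described here are the Eph receptors, ephrins, Slits, Robos, netrins, Dcc and Unc5 receptors, semaphorins and plexins. They were chosen by gene symbol, and a gene had to have at least 50 unique molecular identifiers (UMIs, each marking 1 captured transcript) over the cells of both libraries. Of 68 listed genes with such names, 57 met this minimum, out of 27998 genes listed and 13125 with as many UMIs. They are 11 of 14 Eph receptors, 8 of 8 ephrins, 3 of 3 Slits, 3 of 4 Robos, 2 of 5 netrin rows, 5 of 5 Dcc and Unc5 receptors, 17 of 20 semaphorins and 8 of 9 plexins. Just inside the minimum lay Ntn1 with 56 UMIs, Epha8 with 61 and Robo4 with 82. Just outside lay Epha10 with 47, Sema3b with 44 and Sema3d with 17.

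The study measured single cells of the cerebral cortex of CD1 mouse embryos at embryonic day 16.5. One group held 4 samples from wild type littermates. The other held 4 samples from embryos whose brains were electroporated in utero at E13.5 with a plasmid for ShhN, the signalling fragment of sonic hedgehog (SHH). Electroporation reaches only part of the progenitors at the ventricle, and the plasmid's promoter is not given in the sources used here, nor is whether the wild type littermates received another plasmid. The 4 samples of a group lay in 1 matrix with no map from cells to samples. Each group was therefore 1 library, no test between groups could be made, and no difference below has a replicate check. Intervals in square brackets are exact 95% intervals that cover counting error only.

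After filtering, 6953 wild type and 8068 ShhN cells remained, with medians of 6275 and 6684 UMIs per cell. Shh itself had 0 UMIs in wild type and 5904 in ShhN cells, and its target Ptch1 had 251 and 1930, in the direction of the labels. Both libraries held 79 barcodes in common, where 81.6 would be shared by 2 independent draws from the barcode list. Top2a, a gene of dividing cells, stood at 23.0 CPM (its UMIs scaled to the sum of all UMIs of the same cells, per 1000000) in wild type and at 115 CPM in ShhN cells.

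Guidance molecules steer growing axons and migrating neurons by attraction or repulsion at the cell surface. Ephrins are membrane-bound ligands of the Eph receptor tyrosine kinases, and signals run into both the receptor and the ligand cell. Slits are secreted repellents read by Robo receptors, netrins are secreted cues read by Dcc and the Unc5 receptors, and semaphorins, secreted or membrane-bound, are read by plexins, often with a neuropilin as co-receptor. In the developing cortex these systems act in the exit of newborn neurons from the germinal zones, in the entry of interneurons and vessels, and in the growth of callosal, subcerebral and thalamic tracts.

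Cells were grouped by clustering without any guidance gene, so that the members did not define the groups in which they are described. Clusters were named from fixed markers with the ending "-like". Compared were 7 classes with at least 100 cells in each library, with wild type and ShhN cell numbers as follows. Radial glia-like cells, the stem cells, numbered 170 and 246. Neurogenic intermediate progenitor-like cells, their Eomes-expressing daughters, some of them dividing, numbered 518 and 941. Migrating excitatory neuron-like cells numbered 852 and 1454, and upper layer neuron-like cells 2049 and 2588. Layer 5 neuron-like cells numbered 419 and 555, layer 6 neuron-like cells 488 and 370, and GABAergic interneuron-like cells 788 and 505. Clusters 7, 8, 12, 16 and 20 stayed unnamed, and no cluster took the name of subplate, striatal, choroid plexus or meningeal cells.

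Promoters of 48 of the 57 members were matched in RefSeq (GRCm38.p6), with 64 start sites between them. Below are the 250 bases before the start, on the strand of the gene, for 4 members on which the results turn, with each CG dinucleotide in capitals. Sema3c (chr5:17574566-17574815, plus strand) marked the migrating neurons, and Epha7 (chr4:28812881-28813130, plus strand) was lower in the ShhN library in several classes. Plxnc1 (chr10:94944846-94945095, minus strand) was the member higher in ShhN radial glia-like cells, and Robo4 (chr9:37401722-37401971, plus strand) was found almost only in vascular cells.
Sema3c: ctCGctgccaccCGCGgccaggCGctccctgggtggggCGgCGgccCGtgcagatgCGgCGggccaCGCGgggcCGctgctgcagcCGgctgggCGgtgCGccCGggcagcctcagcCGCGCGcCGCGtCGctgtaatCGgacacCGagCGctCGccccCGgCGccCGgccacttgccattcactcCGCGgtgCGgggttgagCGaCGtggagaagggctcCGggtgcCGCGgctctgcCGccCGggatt
Epha7: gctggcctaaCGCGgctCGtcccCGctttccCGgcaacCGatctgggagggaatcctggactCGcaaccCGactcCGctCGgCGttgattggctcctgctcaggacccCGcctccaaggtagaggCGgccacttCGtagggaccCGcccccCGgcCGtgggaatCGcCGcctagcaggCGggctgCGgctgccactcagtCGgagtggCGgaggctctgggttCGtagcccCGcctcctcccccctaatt
Plxnc1: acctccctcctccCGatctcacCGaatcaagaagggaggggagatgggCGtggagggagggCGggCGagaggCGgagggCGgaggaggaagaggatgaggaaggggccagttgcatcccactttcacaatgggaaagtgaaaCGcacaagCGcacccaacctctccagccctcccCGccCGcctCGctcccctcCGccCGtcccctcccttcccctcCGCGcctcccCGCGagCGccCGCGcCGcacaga
Robo4: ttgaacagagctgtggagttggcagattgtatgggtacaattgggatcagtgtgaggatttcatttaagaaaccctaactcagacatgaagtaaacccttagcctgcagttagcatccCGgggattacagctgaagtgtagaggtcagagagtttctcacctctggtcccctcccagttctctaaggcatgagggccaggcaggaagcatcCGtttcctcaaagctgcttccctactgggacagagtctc
The stretches hold 39 CG for Sema3c, 25 for Epha7, 22 for Plxnc1 and 2 for Robo4. Over 250 bases before to 50 after each start, the median was 22.5 CG for the members' 64 promoters and 7.0 for all 32851 promoters in the table. At most 5 CG were held by 14.1% of the members' and 43.6% of all promoters of that length. The letters GGGTGGTC or their reverse complement GACCACCC, the core of the sites bound by the GLI factors of the SHH pathway, were in 0 of the 64 and in 0.807% of all promoters. The letters CAGATG or CATCTG, an E-box bound by proneural factors, were in 4 of the 64 (Efna3, Epha6, Sema3c and Sema4a) and in 17.2% of all promoters. The motifs do not overlap each other's letters, and a match or its lack says nothing about binding.

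The guidance members were unevenly spread over the cell classes, and layer 6 neuron-like cells had the most enriched members. A member was called enriched in a class when its CPM there was at least 2-fold that of the other 6 classes, with the counting bound at least 0.5 on the log2 scale, in both libraries. Of 53 members with at least 20 UMIs in each library, 28 (52.8%) were enriched in at least 1 class, where 23.8% of 12348 genes were. Layer 6 neuron-like cells held 11 of them (20.8%, against 5.62% of all genes). Radial glia-like cells held 6 (11.3%, against 10.8%), layer 5 neuron-like cells 5 (9.43%, against 3.24%), and migrating and upper layer neuron-like cells 4 each (7.55%, against 1.20% and 1.19%). Intermediate progenitor-like and interneuron-like cells held 2 each (3.77%, against 6.51% and 2.73%). The class with the highest level was the same in both libraries for 39 of the 53 members (73.6%) and for 55.5% of all genes tested.

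**Figure D1:**
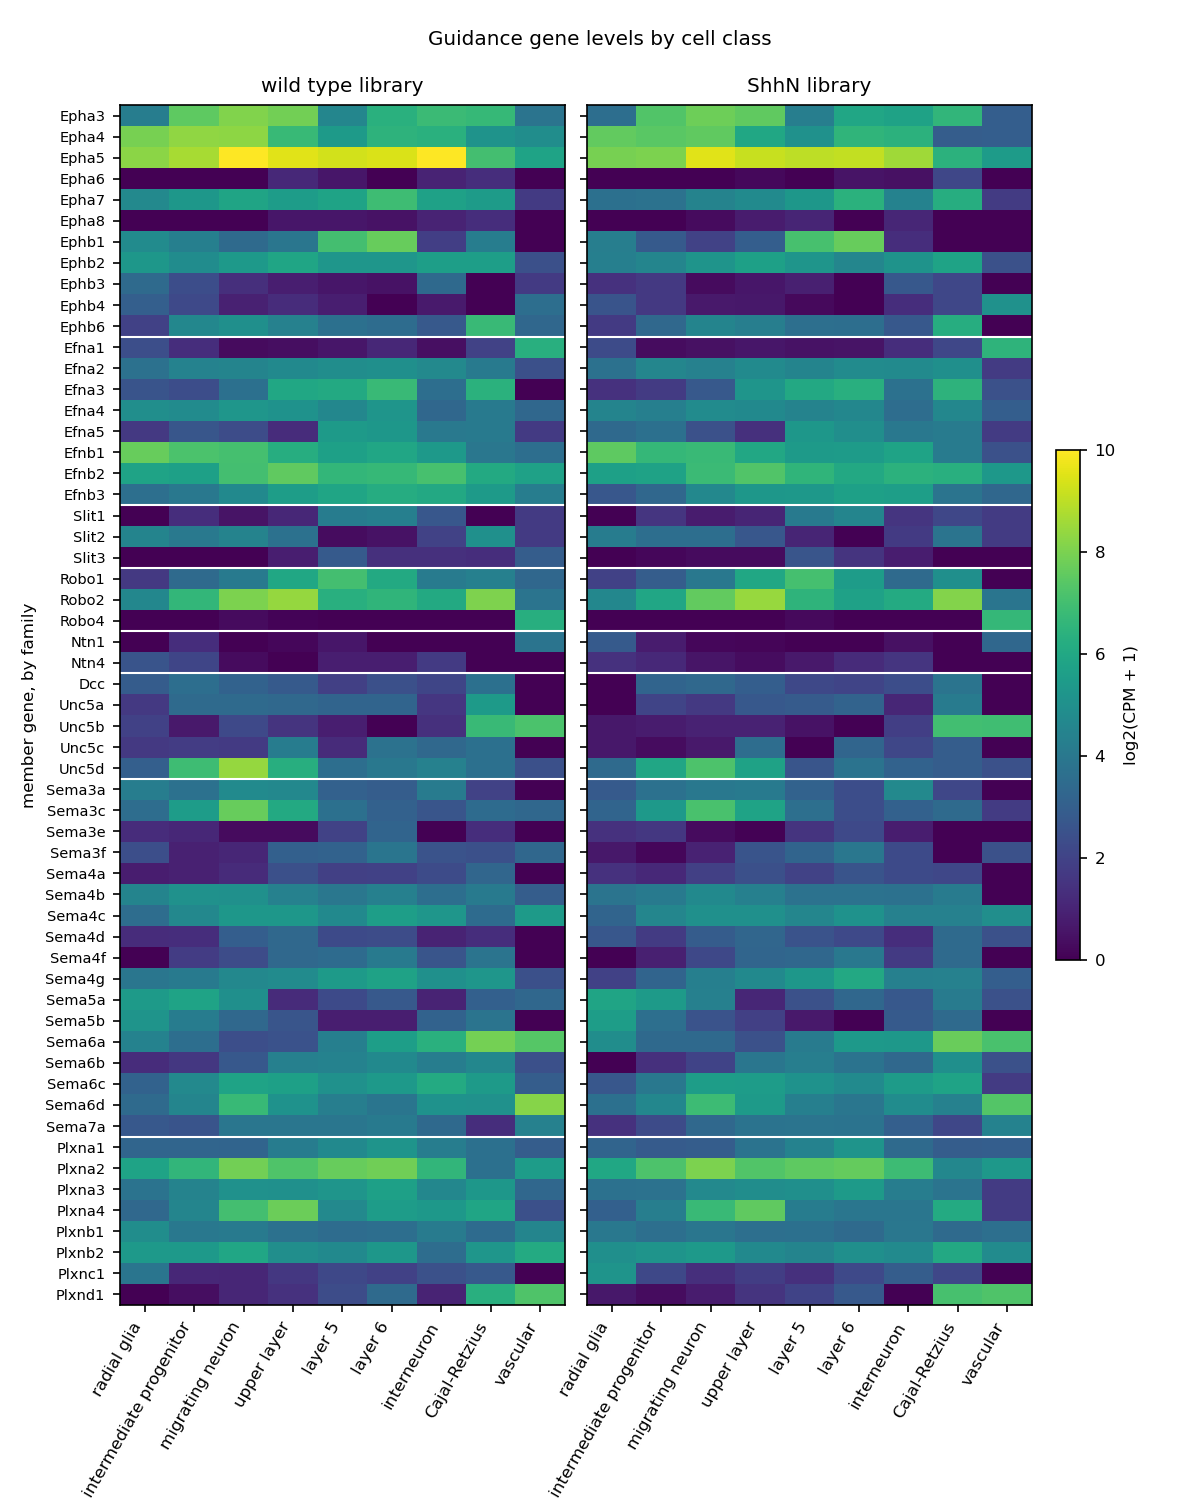
Levels of the 57 members, in rows by family, in 9 cell classes, in columns, for the wild type library (left) and the ShhN library (right), as log2(CPM + 1). White lines part the families. Ephb1 is bright in the columns of layer 5 and layer 6, Unc5d and Sema3c in that of migrating neurons, and Robo4 in that of vascular cells, in both libraries.

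Among the Eph receptors, Ephb1 marked the deep layers. In layer 6 neuron-like cells its level was 202 CPM (wild type) and 201 CPM (ShhN), against 27.9 and 20.2 CPM in the other classes (log2 ratios of 2.86 [2.70, 3.02] and 3.31 [3.14, 3.48]). In layer 5 neuron-like cells it stood at 129.5 and 134 CPM. Each of the other 5 classes compared lay at or below 27.3 CPM in both libraries, so the values of the deep layers and of those 5 classes did not overlap. Epha7, a receptor of A-class ephrins, was likewise highest in layer 6 neuron-like cells, with 117 and 83.3 CPM against 47.1 and 23.7 CPM.

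The other Eph receptors named here had other patterns. Epha4, which binds ephrins of both the A and the B class, stood at 318 and 186 CPM in migrating neuron-like cells, against 126 and 88.6 CPM in the other classes. Progenitors held it too, with 319 and 171 CPM in intermediate progenitor-like and 249 and 195 CPM in radial glia-like cells. Ephb4 was enriched in radial glia-like cells on 10 and 9 UMIs, and Ephb3 in interneuron-like cells on 30 and 15 UMIs. Vascular-like cells held Ephb4 at 11.3 and 32.2 CPM, above the 7.19 and 5.06 CPM of radial glia-like cells. Ephb3 stood at 9.83 CPM in wild type interneuron-like cells, beside 10.1 CPM in wild type radial glia-like cells. Epha5 had the most UMIs of its family, 32228 and 27934, and was enriched in no class. It ranged from 307 CPM in radial glia-like to 1080.2 CPM in migrating neuron-like cells of the wild type, and from 249 to 757 CPM in those of the ShhN library. Barcodes with 1 to 50 UMIs, which hold free RNA, carried Epha5 at 436 and 299 CPM. Erythroid-like cells, which should lack it, stood at 216 and 217 CPM and vascular-like cells at 54.0 and 43.8 CPM, so nothing is read from its level in radial glia-like cells.

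Among the ephrins, Efnb1 was highest in progenitors and Efna5 and Efna3 in deep layer neurons. Efnb1, a transmembrane ligand, stood at 203 and 184 CPM in radial glia-like cells, against 82.9 and 73.8 CPM in the other classes. It stood at 142 and 99.8 CPM in intermediate progenitor-like cells, at 133 and 108 CPM in migrating neuron-like cells and at 50.4 and 42.7 CPM in layer 5 neuron-like cells. Efna5 and Efna3 are ligands anchored by a lipid. Efna5 stood at 42.8 and 38.4 CPM in layer 5 neuron-like cells (2.60 [2.29, 2.90] and 2.51 [2.23, 2.78] against the other classes) and at 38.1 and 29.6 CPM in layer 6 neuron-like cells. In upper layer neuron-like cells it was at 1.44 and 1.65 CPM. Efna3 stood at 108 and 77.8 CPM in layer 6 neuron-like cells, against 40.0 and 25.1 CPM. Efnb2, the ephrin with the most UMIs, was highest in upper layer neuron-like cells, with 186 and 157 CPM, and enriched in none.

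Efna1, Efna3 and Efna4 lie side by side on chromosome 3 (GRCm38), with 32757 bases between Efna1 and Efna3 and 10425 between Efna3 and Efna4. Their highest classes differed and were the same in both libraries: radial glia-like cells for Efna1, layer 6 neuron-like cells for Efna3 and migrating neuron-like cells for Efna4. For Efna1 the level in radial glia-like cells, 4.31 and 3.94 CPM, rested on 6 and 7 UMIs. It stood at 78.8 and 89.8 CPM in the vascular cells described below.

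Of the Robo receptors, Robo1 and Robo2 marked different neurons. They are neighbours on chromosome 16 (72308306 to 73046095 and 73891839 to 74411825, GRCm38), with 845744 bases between them. Robo1 was highest in layer 5 neuron-like cells, with 127 and 133 CPM against 41.2 and 35.3 CPM in the other classes (1.63 [1.47, 1.78] and 1.92 [1.78, 2.05]). Robo2 was highest in upper layer neuron-like cells, with 337 and 351 CPM against 122 and 104 CPM (1.47 [1.40, 1.54] and 1.76 [1.70, 1.83]). In layer 5 neuron-like cells Robo2 was at 78.6 and 89.8 CPM. In migrating neuron-like cells Robo2 was at 263 and 190.3 CPM and Robo1 at 16.6 and 14.9 CPM. With cells classed by marker counts alone, Robo1 was no longer called enriched in layer 5 neuron-like cells, while Robo2 still was in upper layer neuron-like cells. With doublets kept, no cluster was named layer 5, so Robo1 could not be compared there.

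Among the classes compared, their ligand Slit1 was highest in the deep layers and Slit3 in layer 5 neuron-like cells, while Slit2 was highest in radial glia-like cells. Slit3 stood higher still in an unnamed cluster described below. Slit1 stood at 17.5 and 15.8 CPM in layer 5 neuron-like and 18.7 and 22.3 CPM in layer 6 neuron-like cells, and at most at 5.57 CPM in each of the other 5 classes. Slit3 stood at 6.19 and 5.14 CPM in layer 5 neuron-like cells on 23 and 25 UMIs, against 0.698 and 0.315 CPM in the other classes. Slit2 stood at 21.6 and 17.4 CPM in radial glia-like cells, with wild type migrating neuron-like cells level at 21.5 CPM, and at most at 1.03 CPM in layer 5 and layer 6 neuron-like cells. Slit2 was enriched in no single class.

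Netrins were near the lower limit of what these libraries can show. Ntn4 had 36 and 39 UMIs over all cells and Ntn1, the classical attractant, 18 and 31. Ntn1 had 0 UMIs in the radial glia-like cells of the wild type, which allows up to 3 counts, and stood at 6.19 CPM in those of the ShhN library. Of the receptors, Unc5d, known from neurons that leave the subventricular zone, marked the migrating neuron-like cells. It stood there at 340.1 and 147 CPM, against 57.4 and 40.4 CPM in the other classes (2.57 [2.46, 2.67] and 1.87 [1.76, 1.98]). Unc5c marked upper layer neuron-like cells, with 17.3 and 10.8 CPM against 4.71 and 1.32 CPM. Dcc, the netrin receptor for attraction, was highest, in the wild type, in intermediate progenitor-like cells (11.3 CPM) and, in the ShhN library, in migrating neuron-like cells (9.53 CPM), and was enriched in none.

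Of the semaphorins, 9 of 17 were enriched in at least 1 class, with 12 pairs of gene and class, beside 52.8% of all members tested and 23.8% of all genes. Sema3c, a secreted semaphorin, marked the migrating neuron-like cells with 206 and 139.6 CPM, against 42.2 and 38.3 CPM in the other classes (2.29 [2.16, 2.41] and 1.87 [1.76, 1.98]). Sema6d, a transmembrane semaphorin, was enriched in the same cells with 106 and 115 CPM, against 27.1 and 31.8 CPM, but stood higher, at 293 and 159 CPM, in the vascular-like cells described below. Sema5a and Sema5b, which carry thrombospondin repeats, were enriched in both progenitor classes that were compared. Sema5a stood at 54.0 and 42.8 CPM in intermediate progenitor-like cells and at 42.4 and 55.7 CPM in radial glia-like cells. In the other classes compared it stood at most at 30.9 CPM, the highest of these in migrating neuron-like cells. Sema5b stood at 35.2 and 46.1 CPM in radial glia-like cells and at 17.6 and 11.6 CPM in intermediate progenitor-like cells. Sema3e, Sema3f, Sema4f and Sema6a were enriched in layer 6 neuron-like cells, Sema6a also in interneuron-like cells and Sema4d in upper layer neuron-like cells. Sema3f, Sema4f and Sema4d were no longer called with coarser clusters (resolution 0.5) or with cells classed by marker counts alone, and Sema4f and Sema4d also not with doublets kept.

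Of the plexins, their receptors, Plxna4 marked upper layer neuron-like cells. It stood there at 214 and 188 CPM, against 53.6 and 44.9 CPM in the other classes, with migrating neuron-like cells next at 129 and 109 CPM. Plxnc1, a receptor of Sema7a, marked radial glia-like cells among the 7 classes, with 13.7 and 35.4 CPM, against 2.33 and 2.70 CPM. Plxnd1, the direct receptor of Sema3e, was enriched in layer 6 neuron-like cells on 25 and 13 UMIs (9.92 and 5.92 CPM). Plxna1 was enriched in the same class on 88 and 77 UMIs. Plxna2, which had the most UMIs of its family, was above 50 CPM in each of the 7 classes of both libraries and enriched in none.

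**Figure D2:**
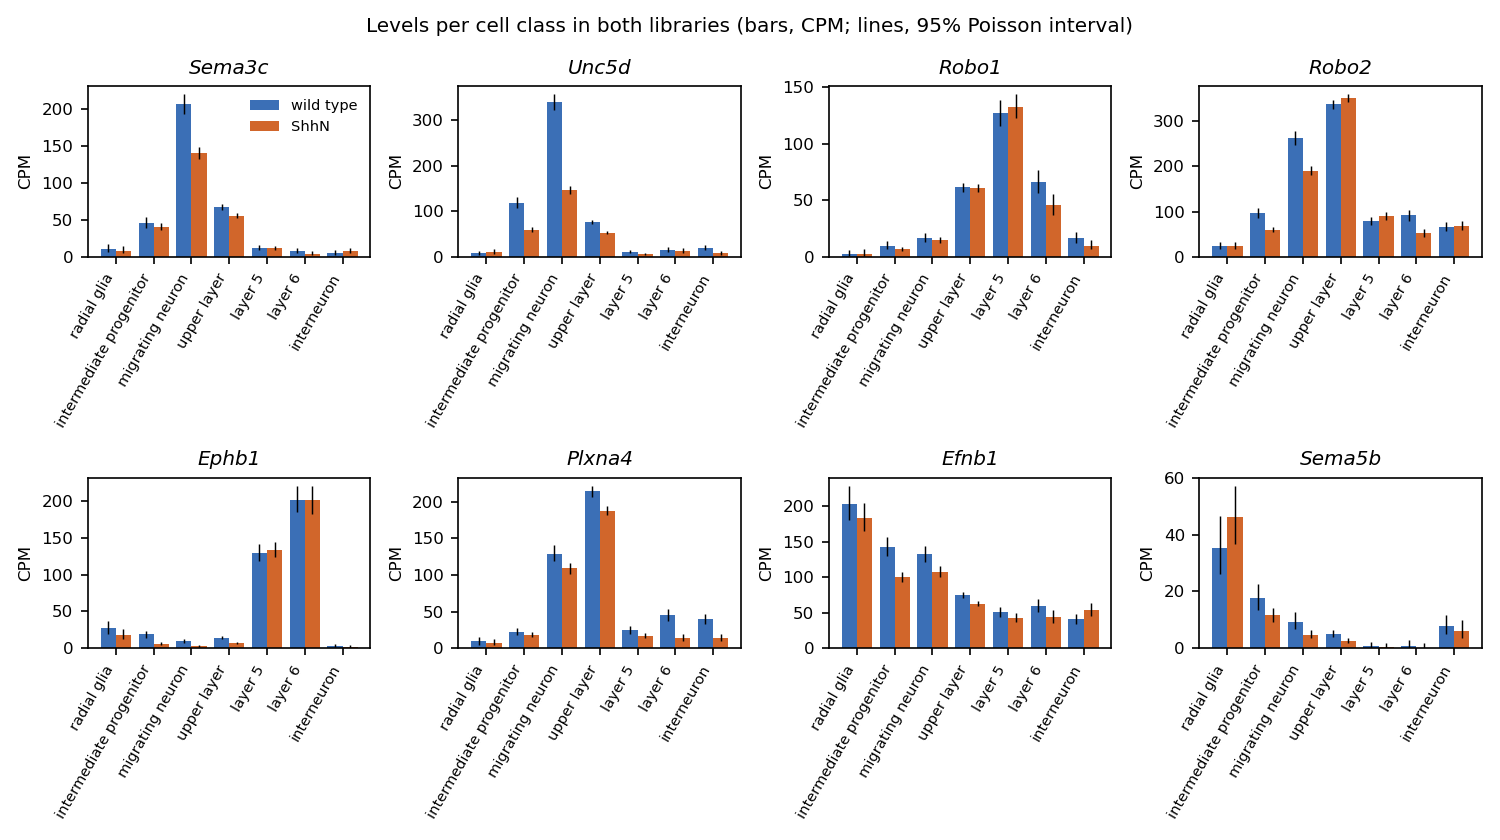
CPM of 8 members in the 7 classes (bars, wild type blue and ShhN orange) with exact 95% Poisson intervals (lines), each panel on its own axis from 0. The highest class is the same in both libraries in every panel: migrating neurons for Sema3c and Unc5d, layer 5 for Robo1, upper layer for Robo2 and Plxna4, layer 6 for Ephb1 and radial glia for Efnb1 and Sema5b.

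In small classes and unnamed clusters outside the 7 classes, several members stood above the levels given so far. The members named here were chosen after their values were seen. In the vascular-like cells (49 and 36 cells, endothelial and mural together), Robo4 stood at 76.6 [53.0, 107] and 101 [73.6, 136] CPM. These cells held 34 of the 36 wild type UMIs of Robo4 (94.4% [81.3, 99.3]) and 44 of the 46 ShhN UMIs (95.7% [85.2, 99.5]). Plxnd1, which guides vessels as well as axons, stood there at 151 and 152 CPM against 3.16 and 2.06 CPM in the remaining cells. Unc5b, a netrin receptor of endothelial cells, stood there at 144 and 122 CPM against 3.25 and 1.51 CPM. Cajal-Retzius-like cells (68 and 30 cells), which secrete Reln at the surface of the cortex, shared Unc5b (109.9 and 125 CPM), Plxnd1 (77.2 and 135 CPM) and Sema6a (239 and 209 CPM) with the vascular-like cells.

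The unnamed cluster 12 (323 wild type and 108 ShhN cells), led by Slit3, Grp, Lhx9 and Crym, held most Slit3. There wild type cells held it at 92.4 [82.2, 103] CPM and ShhN cells at 82.7 [66.6, 102] CPM, against 3.62 and 1.58 CPM in the remaining cells. The cluster held 300 of 457 wild type UMIs of Slit3 (65.6% [61.1, 70.0]) and 91 of 180 ShhN UMIs (50.6% [43.0, 58.1]). Epha4 stood there at 658 and 675 CPM and Dcc at 28.3 and 39.1 CPM, each above the remaining cells in both libraries. Unc5a was highest, among the unnamed clusters, in cluster 16 (226 and 62 cells, led by Nefl and Fam19a1), with 39.3 and 31.1 CPM.

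The ShhN library was next compared with the wild type library. A member was called higher or lower when it had at least 50 UMIs over both, a log2 ratio of ShhN over wild type beyond 1 or -1, and an interval that kept at least 0.5 away from 0. Over all cells, 0 of 56 members tested were higher and 3 were lower, where 2.84% and 1.85% of 13028 genes were. At a threshold of 1.5-fold with a bound of 0.25, 0 were higher and 13 lower, where 4.65% and 5.46% of all genes were. The members' median was -0.34, beside -0.08 for all genes tested, and 7 of the 56 lay above 0, where 36.8% of all genes did. The highest of them was Sema5a at 0.29 [0.13, 0.46].

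Epha6, an Eph receptor, had 62 wild type and 18 ShhN UMIs (1.33 and 0.314 CPM, -2.08 [-2.92, -1.30]). Slit3 had 457 and 180 UMIs (9.79 and 3.14 CPM, -1.64 [-1.90, -1.39]). Unc5a, a netrin receptor for repulsion, had 465 and 266 UMIs (9.97 and 4.64 CPM, -1.10 [-1.32, -0.88]), and an antisense gene, Hk3, overlaps it. In sums over all cells, fewer cells of a type and less RNA per cell cannot be told apart. With both libraries weighted to the same class makeup, the values were -0.93 for Epha6, -0.32 for Slit3 and -0.81 for Unc5a, and 0 members were lower. Within cluster 12, which was smaller in the ShhN library, the Slit3 levels were those given above, with overlapping intervals. Without that cluster Slit3 stood at -1.19 and 5 members were lower. The share of all genes was not computed with equal class makeup or without cluster 12.

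**Figure D3:**
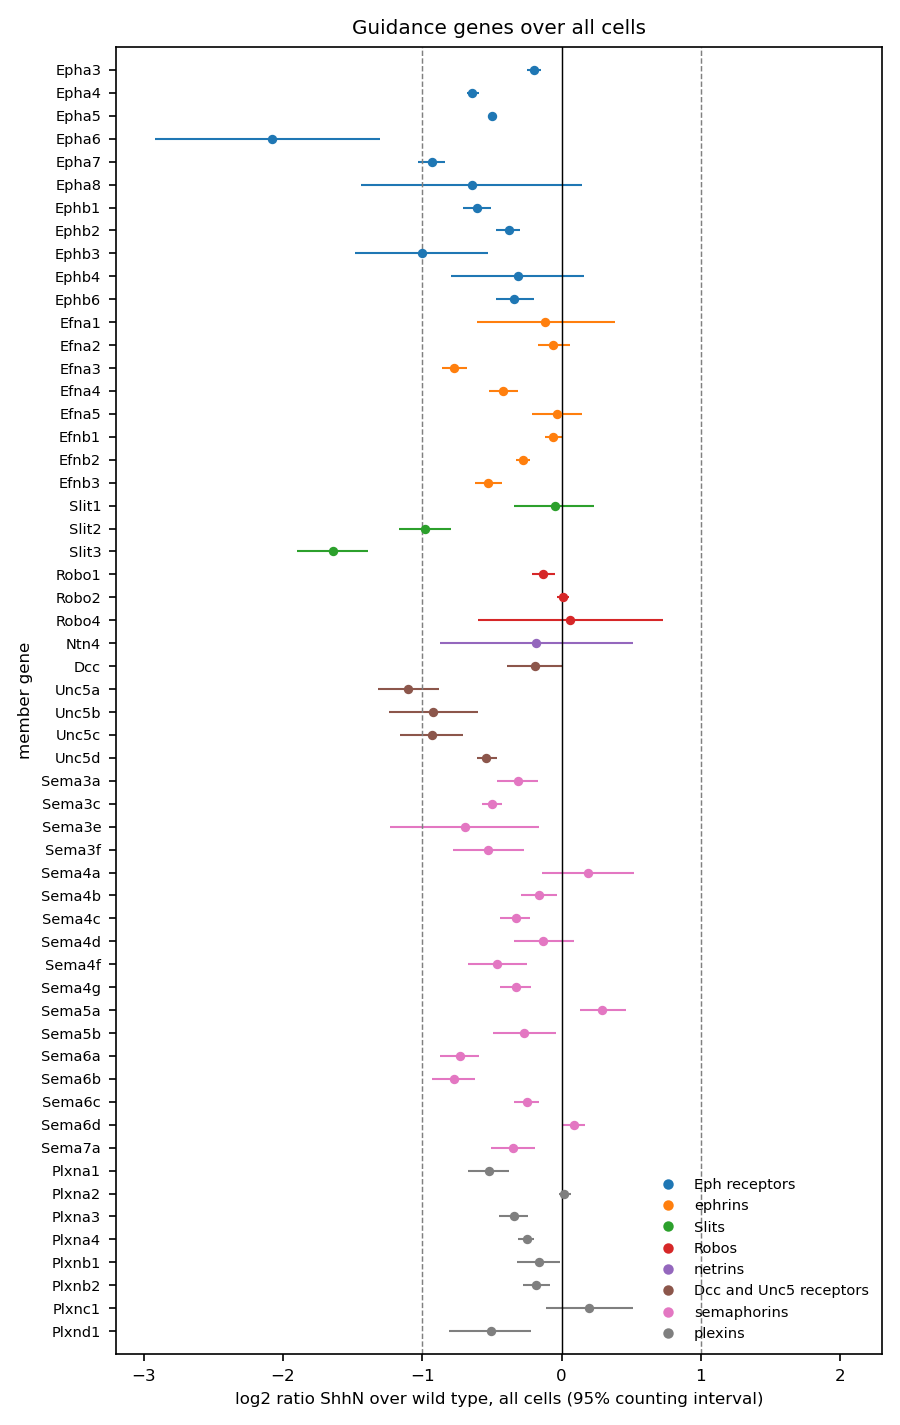
Log2 ratio of ShhN over wild type over all cells for the 56 members with at least 50 UMIs, in rows, coloured by family, with exact 95% counting intervals. Dashed lines mark a 2-fold difference. Most points lie left of 0, and Epha6, Slit3 and Unc5a lie left of -1 with their intervals clear of -0.5.

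Within the classes, 237 pairs of member and class could be tested, and 2 were higher and 17 lower, where 1.58% and 1.14% of 60307 pairs over all genes were. At the 1.5-fold threshold 5 were higher and 46 lower, where 2.93% and 3.90% of all were. The lower pairs came from 10 members. The class medians of the members lay between -0.16 in layer 5 neuron-like and -0.46 in intermediate progenitor-like cells, and those of all genes tested between -0.12 and -0.03. Between the libraries, the cells of a class were spread differently over its clusters. For the members past the rule, values within single clusters are therefore given beside those of the class.

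In radial glia-like cells, 1 of 18 members tested was higher and 0 lower, where 0.565% and 0.505% of 6728 genes were. It was Plxnc1, with 19 wild type and 63 ShhN UMIs, or 13.7 [8.22, 21.3] and 35.4 [27.2, 45.4] CPM (1.38 [0.62, 2.20]). The class is 1 cluster. Plxnc1 no longer passed the rule in cells thinned to 4500 UMIs (2.18, on fewer UMIs) or with cells classed by marker counts alone (0.70). The members' median in this class was -0.30, beside -0.03 for all genes.

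In intermediate progenitor-like cells, 0 of 35 members were higher and 4 lower, where 4.25% and 2.88% of 9336 genes were. Epha7 had 129 and 94 UMIs (38.5 and 12.8 CPM, -1.59 [-1.99, -1.19]). Ephb1 had 63 and 45 (18.8 and 6.13 CPM, -1.62 [-2.20, -1.04]). Ephb6, an Eph receptor without kinase activity, had 79 and 69 (23.6 and 9.41 CPM, -1.33 [-1.81, -0.84]), and Unc5a 34 and 23 (10.1 and 3.14 CPM, -1.69 [-2.52, -0.89]). The wild type cells of this class lay mostly in cluster 10, led by Neurod4 and Eomes (402 wild type and 206 ShhN cells). The ShhN cells lay mostly in cluster 9, led by Top2a and other mitotic genes (81 and 565). Within cluster 10 the values were -1.18 for Epha7, which passed the rule there too, -0.13 for Ephb1, -0.16 for Ephb6 and -0.21 for Unc5a. Free RNA held Ephb1 at 32.3 and 30.2 CPM, above its levels in this class in both libraries, while vascular-like cells had 0 UMIs of it and interneuron-like cells stood at 2.62 and 1.51 CPM. With the free RNA profile subtracted at 10% of each sum, Ephb1 stood at -2.32, and Unc5a no longer passed the rule (-1.87). Epha7 passed the rule in all 12 alternatives run that could end its call in this class.

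In migrating neuron-like cells, 0 of 39 members were higher and 4 lower, where 0.652% and 1.10% of 9358 genes were. Unc5d, the receptor that marked these cells, had 1517 and 1254 UMIs, or 340.1 [323, 358] and 147 [139, 156] CPM (-1.21 [-1.31, -1.10]). It was below the wild type level in both clusters of the class, at -0.88 in cluster 2 (730 and 436 cells) and -1.12 in cluster 3 (122 and 1018 cells), and passed the rule in cluster 3. With cells classed by marker counts alone it stood at -0.84. Epha7 had 252 and 183 UMIs (56.5 and 21.5 CPM, -1.39 [-1.68, -1.11]), with -1.42 in cluster 2 and -0.61 in cluster 3. It passed the rule in all 12 alternatives that could end its call. The alternative that reduced the class to 1 cluster kept cluster 2, so cluster 3 alone was not among them. Free RNA held Epha7 at 50.3 and 37.7 CPM, above its level in the ShhN cells of this class. Unc5a had 45 and 18 UMIs (10.1 and 2.12 CPM, -2.25 [-3.13, -1.44]), with -1.67 and -2.67. Ephb1 had 44 and 25 UMIs (9.86 and 2.94 CPM, -1.75 [-2.52, -1.01]), with -1.04 and 0.28. With the free RNA profile subtracted, Ephb1 no longer passed the rule in this class. Sema3c and Sema6d, also enriched in these cells, did not pass the rule, with 206 and 139.6 CPM and with 106 and 115 CPM.

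In upper layer neuron-like cells, 0 of 44 members were higher and 2 lower, where 0.356% and 0.515% of 10673 genes were. Slit2, the Slit with the most UMIs, had 172 and 104 UMIs, or 12.4 [10.6, 14.4] and 5.52 [4.51, 6.69] CPM (-1.17 [-1.53, -0.81]). It was below the wild type level in each of the 3 clusters of the class, at -1.35, -1.16 and -1.19 in clusters 0, 1 and 5, and passed the rule in all 13 alternatives run that could end its call. Ephb1 had 198 and 131 UMIs (14.3 and 6.96 CPM, -1.04 [-1.37, -0.71]), with -1.15, -0.85 and -2.25 in clusters 0, 1 and 5. With cells classed by marker counts alone Ephb1 stood at -0.67, and with TMM scaling at -0.97. The enriched receptors Robo2 (337 and 351 CPM) and Plxna4 (214 and 188 CPM) did not pass the rule in this class.

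In layer 5 neuron-like cells, 0 of 37 members passed the rule in either direction, where 0.0699% of 8581 genes were higher and 0.128% lower. Ephb1 (129.5 and 134 CPM) and Robo1 (127 and 133 CPM), which marked these cells, had overlapping intervals in both libraries. In layer 6 neuron-like cells, 0 of 35 members were higher and 1 lower, where 0.0263% and 0.434% of 7606 genes were. Plxna4 had 113 and 31 UMIs (44.9 and 14.1 CPM, -1.67 [-2.29, -1.08]). This class joins cluster 11 (252 and 292 cells) and cluster 15 (236 and 78 cells). Within them Plxna4 did not pass the rule, with 11.5 and 7.74 CPM in cluster 11 and 119 and 61.7 CPM in cluster 15. Classing cells by marker counts alone turned its value to 0.19.

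In interneuron-like cells, 1 of 29 members was higher and 6 were lower, where 5.08% and 2.31% of 8025 genes were. Epha5 had 3111 and 1013 UMIs, or 1019 [984, 1056] and 383 [360.0, 408] CPM (-1.41 [-1.51, -1.31]). Epha3 stood at 112 and 53.3 CPM (-1.07 [-1.36, -0.78]), and Epha7 at 51.1 and 20.4 CPM (-1.32 [-1.80, -0.87]). Sema6a, enriched in this class and in layer 6 neuron-like cells, stood at 79.6 and 39.0 CPM (-1.03 [-1.38, -0.69]). Plxna4, known as a receptor of Sema3a and Sema6a, stood at 39.6 and 14.0 CPM (-1.50 [-2.07, -0.96]), and Unc5d at 20.3 and 7.94 CPM (-1.35 [-2.14, -0.62]). Plxnb2, a receptor of class 4 semaphorins, was higher, with 33 and 71 UMIs (10.8 and 26.9 CPM, 1.31 [0.70, 1.96]).

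The clusters of this class were filled differently in the 2 libraries, and the part of that in the 7 differences was not tested. Cluster 6, led by Nxph1, Sst and Lhx6, held 604 wild type and 239 ShhN cells, and cluster 17, led by Dlx6os1 and Sp9, held 9 and 226. Within cluster 6, on fewer UMIs, none of the 7 passed the rule. There Epha5 stood at 1069 and 733 CPM (-0.54), Epha3 at -0.91, Epha7 at -0.72, Unc5d at -0.57 and Plxna4 at -0.78. Sema6a stood there at 83.6 and 91.5 CPM (0.13) and Plxnb2 at 7.80 and 6.89 CPM (-0.18), both on the other side of 0. In cluster 17, Plxnb2 stood at 42.5 CPM and Sema6a at 2.74 CPM in the ShhN library. The levels of Epha3, Epha7, Unc5d and Plxna4 in the ShhN interneuron-like cells lay below those in free RNA (107, 37.7, 42.8 and 85.6 CPM). With that profile subtracted at 10% of each sum, all 7 still passed the rule.

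**Figure D4:**
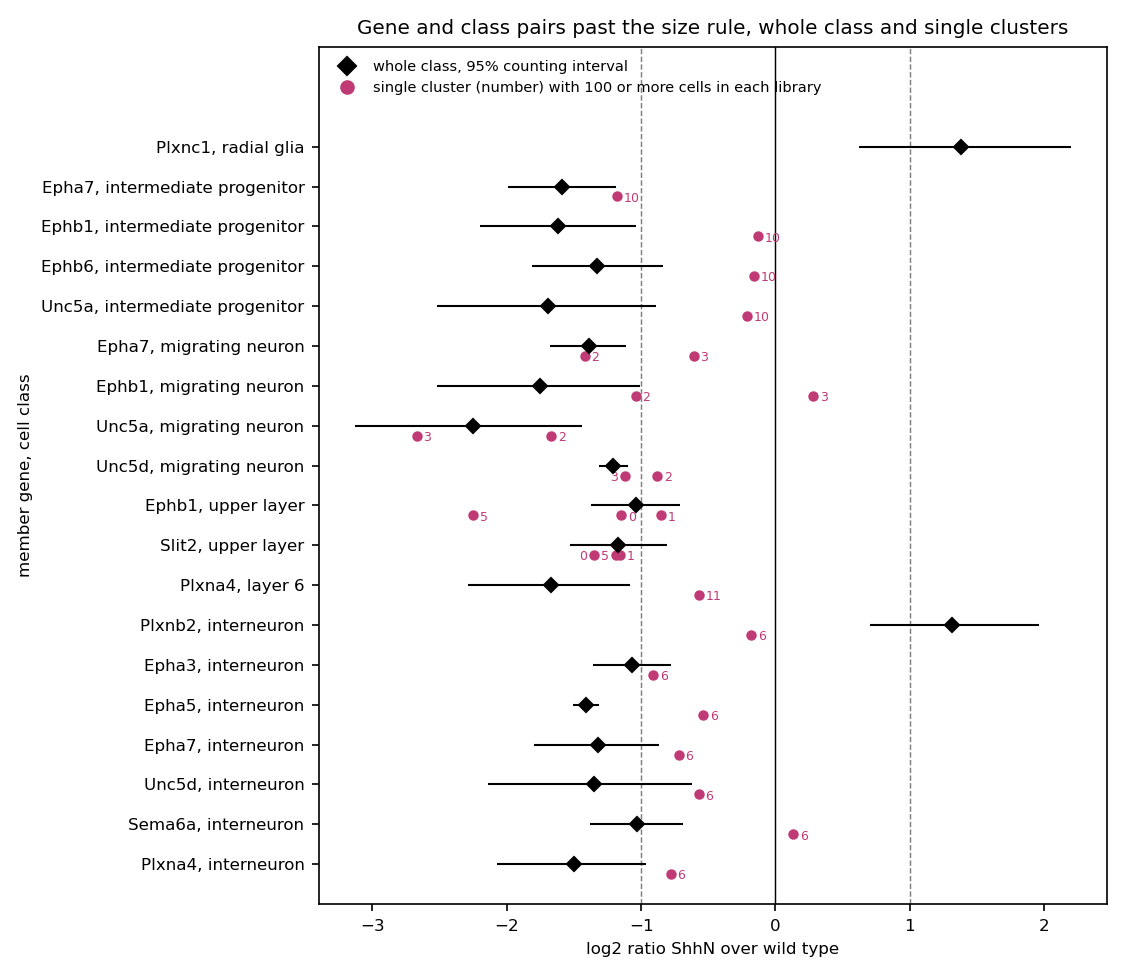
Log2 ratio of ShhN over wild type for the 19 pairs of member and class past the size rule. Black diamonds show the whole class with its exact 95% counting interval, and numbered points show single clusters with at least 100 cells in each library, for classes of more than 1 cluster. The points of cluster 6 lie nearer 0 than the interneuron diamonds, while the 3 points of Slit2 in upper layer cells all lie left of -1.

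Partners and effectors of these receptors were counted from a list of 54 genes outside the families. Over all cells 0 were higher and 1 lower, beside the 2.84% and 1.85% of all genes. It was Nrp2, a neuropilin and co-receptor of secreted semaphorins, with 2561 and 848 UMIs (54.9 and 14.8 CPM, a log2 ratio of -1.89). Cluster 12 held Nrp2 at 383 CPM in its 323 wild type cells and at 260.0 CPM in its 108 ShhN cells. Nrp2 was also lower in migrating (-1.44), upper layer (-1.23), layer 5 (-2.15), intermediate progenitor-like (-1.03) and interneuron-like cells (-1.60). Free RNA differed in the same direction, with Nrp2 at 47.5 (wild type) and 10.9 CPM (ShhN). The part of free RNA in these class values was not tested. Nrp2 had too few UMIs for the rule in radial glia-like cells (2 and 3) and layer 6 neuron-like cells (12 and 5). Its relative Nrp1 stood at 463 and 362 CPM over all cells and did not pass the rule. In layer 6 neuron-like cells Nrp1 was lower, with 118 and 48.2 CPM (-1.29 [-1.63, -0.97]), and in interneuron-like cells with 72.7 and 34.8 CPM (-1.06 [-1.43, -0.71]). Within single clusters Nrp1 did not pass the rule there, with -0.58 and -0.55 in clusters 11 and 15 of layer 6 and -0.43 in cluster 6 of the interneurons.

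In intermediate progenitor-like cells 1 of 47 listed partners was higher and 5 were lower, where 4.25% and 2.88% of all genes were, with a median of 0.00, beside -0.08 for all genes. Pak3, a kinase that acts on the actin skeleton, was higher with 64.2 and 169 CPM (1.39 [1.18, 1.61]). Draxin, a secreted ligand of Dcc, was lower with 105 and 52.2 CPM (-1.01 [-1.22, -0.80]). Flrt1, a partner of Unc5 receptors, was lower with 86.8 and 37.9 CPM (-1.20 [-1.44, -0.95]), and so were Chn2 and Rnd1. Within cluster 10, where most wild type cells of the class lay, Pak3 stood at 0.14, Draxin at -0.02 and Flrt1 at -0.38, and none of the 3 passed the rule. Within cluster 9 Pak3 passed it, at 1.29, while Draxin stood at -0.25 and Flrt1 at -0.20. In radial glia-like cells 0 of 30 listed partners were higher and 0 lower, where 0.565% and 0.505% of all genes were.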

How the data were processed

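Single-cell libraries of wild type and ShhN cortex were analysed. Per the file headers, the authors deposited 1 matrix per group of whole-number UMI counts per gene and barcode, not normalized. The submitters' processing notes name the mm10 build and the tools Cell Ranger, Seurat 3 and StringTie, in roles not given in the sources used here. Whether counting used strand is not given either, so reads of a member and an antisense gene overlapping it, as for Epha7, Ephb1, Slit2, Unc5a and Plxna4, may not be told apart. The matrices carry control and experimental prefixes, matched here to the wild type and ShhN titles. The libraries held 63760199 and 69470062 UMIs, of which 73.2% and 82.4% lay in cells.

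Cells were barcodes with at least 2300 UMIs, 800 genes and at most 10% mitochondrial UMIs. Doublets called with scrublet in scanpy 1.11.5 (3.87% and 2.96%) were removed, after members were counted. Counts per 10000 UMIs were log-transformed and clustered with leidenalg 0.10.2 (2000 variable genes, 30 principal components, 15 neighbours, resolution 1). The variable genes held no member, listed partner, SHH pathway gene, globin, mitochondrial gene, Y-linked gene or Xist. To be named, a cluster had to show 3 or more markers in 10% of its cells, each 1.5-fold above the rest. After the clusters were seen, at least 4 markers and 50% of the list were asked for, which left clusters 8, 12 and 16 unnamed. Names may differ from the authors'.

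UMIs were summed per class and divided by the class total (CPM), with exact Poisson intervals. Intervals of ratios are exact conditional binomial and those of shares exact Clopper-Pearson, and all cover counting error only. A count of 0 allows up to 3 counts. On counts simulated with counting error alone, 95.3% of intervals over all cells held the true ratio and 100.0% of 4-fold changes were recovered, with 1 false call among 13040 genes. Differences between samples, in free RNA or in cluster makeup were not simulated, so these figures give no error rate for the calls between the libraries. Members and lists were chosen with earlier results of these data known. Values are given for members past the size rule, for up to 4 enriched members per family ranked by the smaller library's bound, and for the member with most UMIs of each family. Others named with a value were chosen after their values were seen. Coordinates of genes are from GENCODE on GRCm38, matched by gene ID.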

Additional observations from a re-analysis of the deposited data

How the results depend on the processing

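No paired analysis was possible because the samples of a group were pooled in 1 matrix and no column carried a replicate number. The share of all genes past the rule was computed for the main setting and the 1.5-fold threshold only. Counts in the other alternatives are therefore not read as results about the members. The count of members higher over all cells stayed 0 in every alternative run. The 3 lower members over all cells became 5 with doublets kept, with free RNA subtracted and without cluster 12, 13 at a 1.5-fold threshold and 0 with equal class makeup. The 2 higher pairs of member and class became 0 with a minimum of 200 UMIs and in thinned cells, 1 with doublets kept and without dividing cells, 4 with TMM scaling and 5 at a 1.5-fold threshold (where 2.93% of all gene and class pairs were higher). The 17 lower pairs became 9 with a minimum of 200 UMIs, 11 at resolution 0.5, 10 without dividing cells, 46 at a 1.5-fold threshold (where 3.90% of all were lower) and 8 when each class was reduced to its largest cluster shared by both libraries. In that last setting, added after the clusters were seen, 5 of the 19 pairs still passed the rule, and Sema6a (0.13) and Plxnb2 (-0.18) in interneuron-like cells changed sign. Marker counts alone in place of clusters turned Plxna4 in layer 6 neuron-like cells to 0.19 and left 11 of the 19 pairs past the rule. Slit2 in upper layer neuron-like cells and Epha7 in intermediate progenitor-like and in migrating neuron-like cells were the 3 pairs past the rule in every alternative run that could end the call (13 for Slit2 and 12 for Epha7 in each class), leaving out those that only loosen the rule or keep the same cells. Free RNA was subtracted only at 10% of each sum, and a larger part of it in these 3 pairs was not tested. TMM scaling raised log2 ratios by 0.12 in intermediate progenitor-like and by 0.11 in layer 6 neuron-like cells. The count of enriched members stayed within 1.5 times 28 in every alternative run, and from 27 of 34 (marker counts alone, and the largest shared cluster) to 34 of 34 of the enriched pairs of member and class were called again, or 24 of 29 with doublets kept and 26 of 28 without dividing cells, where fewer could be compared. Of 322 alternative values of single members, 241 kept their direction and their side of the rule, 78 kept their direction but no longer passed it, and 3 changed sign, those named above. The cause was not tested except where the alternative itself leaves fewer cells or UMIs. Thinning left out 1680 wild type and 1054 ShhN cells below 4500 UMIs.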
